A study of Mus musculus with 4 samples.

Results

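Integrins are adhesion receptors of the cell surface, each made of an alpha chain and a beta chain. Here, 10 chains known from leukocytes were followed in the mouse T cell lines TS2 and TS1. They were chosen by name, with earlier results of these data known. The 10 comprise 6 alpha chains (Itgal, Itgam, Itgax, Itgae, Itga2 and Itga4) and 4 beta chains (Itgb1, Itgb2, Itgb3 and Itgb7). All 10 were measured, each by 1 probe set that names no other gene, among 19939 genes in all. The study compared untreated TS2 with untreated TS1 cells by Affymetrix expression array, with biological duplicates A and B of each line and 1 array per duplicate. Both lines derive from CD4+ T lymphocytes and were kept in a medium containing mouse interleukin-9, a T cell growth factor, so that shared condition is part of every value. The sources used here do not give the clonality of the lines, the strain of the donor mice or whether A and B were separate cultures. The p-values therefore measure only the spread between these arrays, which may be technical.

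An integrin chain reaches the cell surface only with a partner, and the alpha chain largely sets the ligand. The beta2 chain Itgb2 pairs with Itgal to form LFA-1, which binds intercellular adhesion molecules (ICAMs), and with Itgam, Itgax and Itgad in receptors typical of myeloid cells. Itgb7 pairs with Itga4 in the gut-homing receptor that binds Madcam1, and with Itgae in the receptor for E-cadherin on epithelium. Itgb1 pairs with Itga4 in a receptor for Vcam1 and fibronectin, with Itga2 in a collagen receptor, and with many other alpha chains. Itgb3 pairs with Itgav, and in platelets with Itga2b.

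The TS2 arrays correlated with each other at r = 0.994 and the TS1 arrays at r = 0.992 (Pearson, log2 intensity, across probe sets, which are not independent). Values below are log2 intensities unless stated otherwise, and differences are TS2 minus TS1 from limma, with Benjamini-Hochberg adjustment over all 19939 genes and a threshold of 0.05. With 2 arrays a line, the smallest p of a two-sided exact permutation test is 0.333. Since no detection calls were used, a background level was set on each array as the 95th percentile of 1190 olfactory and vomeronasal receptor genes, which lymphoid cells are not known to use. It lay at 5.84 on TS2 A, 5.75 on TS2 B, 5.61 on TS1 A and 5.70 on TS1 B and is called the receptor level below. Probes differ in brightness, so the level says whether a chain stands out from such genes, not which of 2 chains is more abundant. RNA came from whole cultures, in which fewer cells with a transcript and less transcript per cell cannot be told apart.

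The labelled cell type was checked against 13 measured T cell markers, of which 7 lay above the receptor level on both arrays in TS2 and 6 in TS1. Most of the TS1 markers exceeded it by little. At the 99th percentile of the same receptor genes, only Zap70 remained on both TS1 arrays. In TS2, Cd3e, Cd3g, Cd247, Zap70 and Ptprc remained. Cd3d, Cd2, Cd6 and Cd8b1 lay below the receptor level on all 4 arrays. Cd4, the co-receptor in the lines' description, lay below it on all 4 arrays, at 5.15 and 5.28 in TS2 and 5.38 and 5.36 in TS1. Cd3e, part of the CD3 signalling complex, was at 12.74 and 12.53 in TS2 and 6.45 and 6.41 in TS1. Ptprc, which encodes the leukocyte antigen CD45, was at 11.11 and 10.96 in TS2 and 5.0 and 4.99 in TS1, where it lay below the receptor level (adjusted p = 9.39e-05). The summed intensity of the T cell markers was 13300 and 14770 in TS2, against 2327 and 1022 in TS1, and 4 of the 13 were called higher in TS2 and 0 lower. The part of these T cell genes in the differences between integrin chains was not tested. Of other cell types' markers, 0 of 5 B cell, 0 of 7 dendritic cell and 1 of 12 fibroblast, epithelial or endothelial genes were called different.

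TS2 cells had more transcript of Itgal, Itga2 and Itgb7, by 9.59-fold, 9.11-fold and 6.80-fold, and less of Itga4. The common beta chains Itgb1 and Itgb2 were bright in both lines. Itgam, Itgax and Itgae, alpha chains of myeloid, dendritic and intraepithelial cells, were dim in both. In all, 3 of 10 chains were higher in TS2 and 1 was lower, while 6 did not pass. Of all genes, 13.5% were called different, 5.05% higher in TS2 and 8.45% lower. The median difference of the 10 chains was 0.037, against 0.013 over all genes. For 7 of the 10 chains every array of one line lay above every array of the other, against 58.4% of all genes.

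**Figure D1:**
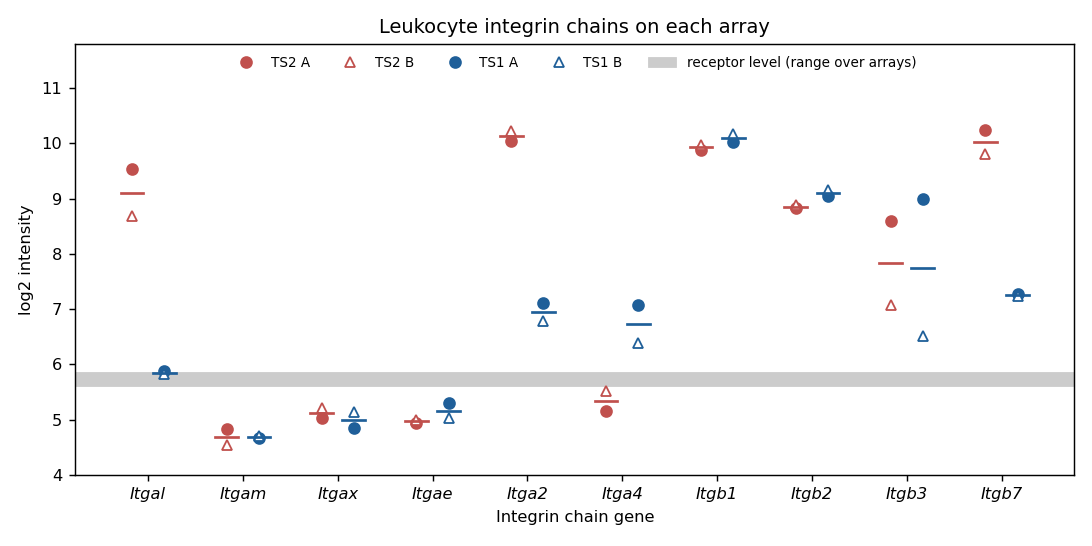
Log2 intensity (vertical axis) of the 10 leukocyte integrin chains on each array, TS2 in red left of TS1 in blue, duplicates A filled and B open, bars at the mean of 2 arrays. The grey band spans the receptor level over the 4 arrays. Itgal, Itga2 and Itgb7 stand higher in TS2, Itga4 stands higher in TS1, and the duplicates of Itgb3 lie far apart in both lines.

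Among the alpha chains, Itgal had log2 intensities of 9.53 and 8.69 in TS2, against 5.88 and 5.82 in TS1. Both TS2 arrays were far above both TS1 arrays, and the TS1 values lay just above the receptor level. The difference was 3.26 (SE 0.28, 95% interval 2.55 to 3.98, adjusted p = 0.00369). Itga2, the alpha chain of the collagen receptor, had 10.04 and 10.23 in TS2, against 7.12 and 6.78 in TS1. Both lines were above the receptor level, with no overlap, and the difference was 3.19 (SE 0.15, 95% interval 2.81 to 3.57, adjusted p = 0.000718). In mouse, Itga2 is also a widely used surface marker of NK cells and basophils. Of 6 measured markers of NK and innate lymphoid cells, 3 were called higher in TS2 (Klrk1, Ncr1 and Il7r, the last also used by T cells) and 1 lower (Eomes). Their summed intensity was 2677 and 1576 in TS2 and 1224 and 1250 in TS1, and 4 of the 6 lay above the receptor level in TS2 and 2 in TS1. Klrb1c, which encodes NK1.1, lay below that level on all 4 arrays. Ncr1 exceeded it only on TS2 B, with 5.72 and 6.28 in TS2, so the size of its difference is uncertain. Of 9 mast cell and basophil markers, 5 lay above the level in TS2 and 4 in TS1, with summed intensities of 9252 and 13460 in TS2 and 9907 and 11470 in TS1. Most of these sums came from Fcer1a, the alpha chain of the high-affinity IgE receptor, with intensities of 8207 and 8674 in TS2 and 6619 and 7708 in TS1. Ms4a2, Tpsb2 and Tpsab1 of this list lay below the receptor level on all 4 arrays, while Cpa3 lay above it on all 4. In this list 0 genes were called higher in TS2 and 2 lower (Kit and Gata2). Gata2 was at 6.52 and 6.91 in TS2 and 11.22 and 11.51 in TS1 (difference -4.65, adjusted p = 0.000411). Kit was at 5.48 and 5.32 in TS2, below the receptor level, and 7.20 and 7.40 in TS1 (difference -1.90, adjusted p = 0.00153). Mcpt8, a basophil protease, was at 7.89 and 11.64 in TS2 and 5.75 and 4.55 in TS1 (adjusted p = 0.0773). Mcpt4, a mast cell protease, was at 6.6 and 10.10 in TS2 and 5.45 and 5.34 in TS1 (adjusted p = 0.158). The part of these marker genes in the Itga2 difference was not tested.

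Itga4 was the chain that fell, at 5.16 and 5.51 in TS2 and 7.08 and 6.38 in TS1. Its TS2 arrays lay below the receptor level, and its TS1 arrays lay above it. The difference was -1.40 (SE 0.26, 95% interval -2.07 to -0.72, adjusted p = 0.0312). The difference was -1.22 without TS2 A, -1.58 without TS2 B, -1.05 without TS1 A and -1.75 without TS1 B. The call was lost without either TS2 array, where the spread comes from the TS1 arrays alone. With the replicate letter as a block the call was also lost, at an adjusted p of 0.0730.

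The remaining alpha chains lay below the receptor level on every array. Itgam had 4.82 and 4.53 in TS2 and 4.67 and 4.71 in TS1, and the lines overlapped (difference -0.012, 95% interval -0.33 to 0.31, adjusted p = 0.965). Besides this probe set, 3 probe sets name Itgam together with the ribosomal protein gene Rpl35, and they were not used. Itgax had 5.03 and 5.21 in TS2 and 4.84 and 5.13 in TS1, also with overlap (difference 0.13, 95% interval -0.22 to 0.49, adjusted p = 0.595). Itgae had 4.94 and 5.0 in TS2 and 5.30 and 5.02 in TS1, where the ranges lay next to each other (difference -0.19, 95% interval -0.51 to 0.12, adjusted p = 0.384). Of 10 markers of myeloid cells, the cells best known for Itgam and Itgax, 2 lay above the receptor level in each line (Cd68 and Mpo). Csf1r, Adgre1 and Lyz2 lay below it on all 4 arrays, and the summed intensity of the 10 was 490.8 and 498.4 in TS2 and 602.9 and 588.8 in TS1. Of the 10, 0 were called higher in TS2 and 1 lower, Cd68 (difference -0.64, adjusted p = 0.0261).

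Among the beta chains, Itgb7 had 10.24 and 9.82 in TS2, against 7.28 and 7.24 in TS1. The lines did not overlap, and both lay above the receptor level. The difference was 2.77 (SE 0.16, 95% interval 2.36 to 3.17, adjusted p = 0.00125). Itgb1 had 9.88 and 9.98 in TS2 and 10.03 and 10.17 in TS1. The TS2 arrays were slightly below the TS1 arrays, but the difference of -0.17 did not pass (95% interval -0.43 to 0.086, adjusted p = 0.340). Itgb2 had 8.82 and 8.88 in TS2 and 9.05 and 9.15 in TS1. Here too the arrays did not overlap and the difference of -0.25 did not pass (95% interval -0.49 to -0.0078, adjusted p = 0.160). Both intervals hold only differences under 1, which is 2-fold.

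Itgb3 varied more between duplicates than between the lines. Its values were 8.59 and 7.08 in TS2 A and B, and 8.99 and 6.51 in TS1 A and B. Duplicate A was above duplicate B in both lines, by 2.86-fold in TS2 and 5.57-fold in TS1. That spread exceeded the spread of 99.7% of genes in TS2 and of 99.9% in TS1. At least a 2-fold excess of A over B in both lines was shared by 4 of 19939 genes, Itgb3 among them, and the opposite by 4. The other 9 chains lay within 2-fold between the duplicates of each line. The difference between the lines was 0.087 with a 95% interval of -2.27 to 2.45 (adjusted p = 0.966). It was -0.67 without TS2 A, 0.84 without TS2 B, 1.33 without TS1 A and -1.15 without TS1 B, so its direction turned with the array left out. Leaving out 1 array also leaves the letters unbalanced between the lines. With the replicate letter as a block the difference was again 0.087, with SE 0.26 in place of 0.92 (adjusted p = 0.877). The labels do not say that a letter marks a shared condition.

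**Figure D2:**
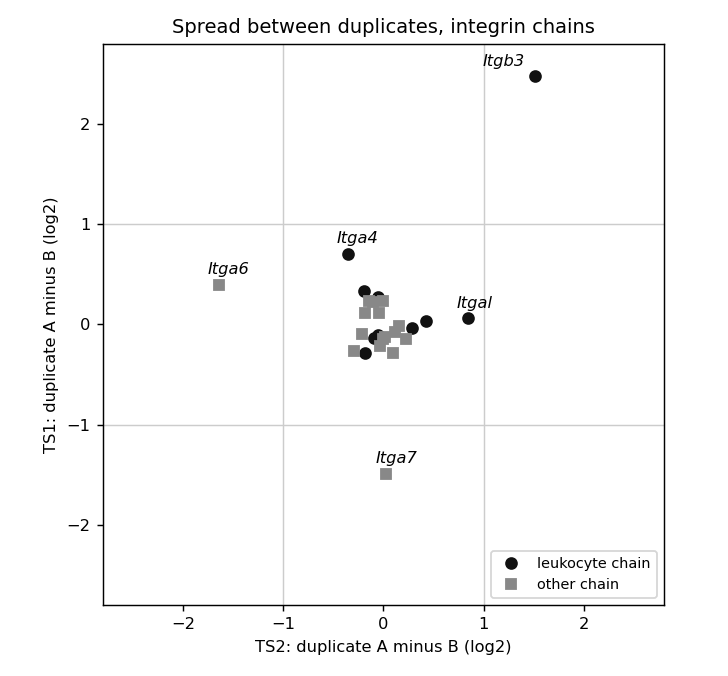
Duplicate A minus duplicate B (log2 intensity) in TS2 (horizontal axis) and TS1 (vertical axis) for the 10 leukocyte chains (circles) and 16 other integrin chains (squares), with grey lines at a 2-fold difference. Itgb3 lies beyond 2-fold in both lines in the same direction, and Itga6 in TS2 and Itga7 in TS1 lie beyond it in the opposite direction.

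The upstream sequences of the called chains are shown because Itga2 and Itgb7 moved together and Itga4 moved the other way. RefSeq windows (GRCm38.p6) were available for 3 of the 4 called chains, and the other is Itgal. Each line gives the 250 bases before the transcription start, 5′ to 3′ on the gene's strand. Capitals mark matches, on either strand, to words known from 5 families of lymphoid transcription factors. The words searched were GTGTGA for the T-box family, TGTGGT for the RUNX family, AGGAAG for the ETS family, AGATAA for the zinc finger family named GATA, and TTCNNNGAA for the STAT family. No match overlapped another.
Itga2 promoter, chr13:114932101-114932350, minus strand: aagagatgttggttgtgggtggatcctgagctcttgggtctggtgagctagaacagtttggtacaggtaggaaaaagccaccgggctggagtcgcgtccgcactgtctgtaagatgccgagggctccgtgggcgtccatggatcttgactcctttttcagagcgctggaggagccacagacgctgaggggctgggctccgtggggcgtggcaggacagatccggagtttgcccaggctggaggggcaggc
Itgb7 promoter, chr15:102231936-102232185, minus strand: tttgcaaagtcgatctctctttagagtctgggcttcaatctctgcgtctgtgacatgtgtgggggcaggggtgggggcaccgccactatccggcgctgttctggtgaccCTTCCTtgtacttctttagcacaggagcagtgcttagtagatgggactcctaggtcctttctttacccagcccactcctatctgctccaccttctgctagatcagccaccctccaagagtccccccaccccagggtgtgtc
Itga4 promoter, chr2:79255176-79255425, plus strand: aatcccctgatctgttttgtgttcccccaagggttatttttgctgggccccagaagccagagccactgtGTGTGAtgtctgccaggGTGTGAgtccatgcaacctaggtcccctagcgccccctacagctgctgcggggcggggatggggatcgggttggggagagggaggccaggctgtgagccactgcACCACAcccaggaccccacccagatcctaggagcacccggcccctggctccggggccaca

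The Itga2 window held 0 of these words. The Itgb7 window held 1 ETS word, on the opposite strand, at 141 to 136 bases before the start. The Itga4 window held 2 T-box words, at 181 to 176 and 164 to 159 bases before the start, and 1 RUNX word on the opposite strand at 60 to 55 bases. Over 32851 RefSeq windows of the same length, 29.5% held the ETS word, 12.3% the T-box word, 14% the RUNX word, 10% the GATA word and 7.0% the STAT word. A match is a description of letters, not of binding.

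The called chains lie on 4 chromosomes. Among the 2 nearest measured genes on each side of them, Pelo, Rarg and Cerkl were called, beside 13.5% of all genes, so nothing is read from that count. Of the 2 nearest measured genes on each side of Itgal on chromosome 7, 0 passed by limma (Dctpp1, Sephs2, Zfp768 and Zfp747, adjusted p from 0.0591 to 0.516). Itgam, Itgax and Itgad follow one another on the same chromosome, 37 to 39 measured genes further along, and none of them was called. Itga2 on chromosome 13 neighbours Itga1, the alpha chain of another collagen receptor, which lay below the receptor level on all 4 arrays (difference 0.13, adjusted p = 0.529). Pelo, which lies next in order, was higher in TS2 by 0.60 (adjusted p = 0.0244). Rarg, a retinoic acid receptor gene beside Itgb7 on chromosome 15, was higher in TS2 by 0.99 (adjusted p = 0.00437). Cerkl, beside Itga4 on chromosome 2, was at 8.11 and 7.90 in TS2 and 5.24 and 5.08 in TS1 (adjusted p = 0.000551). Its TS1 values lay below the receptor level, so the size of that difference is uncertain.

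By distance of the 4 array values after each gene's mean was subtracted, the genes most like Itgal were Cysltr1 (0.287), Rcsd1 (0.289) and Tmprss11g (0.333). Those most like Itga4 were Lrrc28 (0.0605), Zswim5 (0.132) and Rundc3a (0.197). With 4 arrays, such likeness is only a description.

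Next, 24 known alpha-beta pairs were examined for whether both chains lay above the receptor level on both arrays of a line. These are transcripts, and surface protein was not measured. Both members of a pair were among the 10 chains in 7 pairs, of which 2 met this in TS2 and 4 in TS1. In TS2 these were Itgal with Itgb2 (LFA-1) and Itga2 with Itgb1 (the collagen receptor). TS1 had the same pairs above the level, and in addition Itga4 with Itgb1 and Itga4 with Itgb7. Itgb7, which was higher in TS2, had neither of its alpha partners above the level there, since Itga4 and Itgae were both below it. Itgam, Itgax and Itgae lacked the level in both lines, so their pairs had the beta chain only.

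Among these 7 pairs, those of TS1 depended on where the level was drawn. Itgal in TS1 exceeded the receptor level by little, with 5.88 against 5.61 on array A and 5.82 against 5.70 on array B. With the 99th percentile of the same receptor genes (6.47 on TS1 A and 6.50 on TS1 B) or the median of all genes, 2 of the 7 pairs remained above the level in TS2 and 1 in TS1. Those were the same LFA-1 and collagen receptor pairs in TS2, and the collagen receptor pair in TS1.

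**Figure D3:**
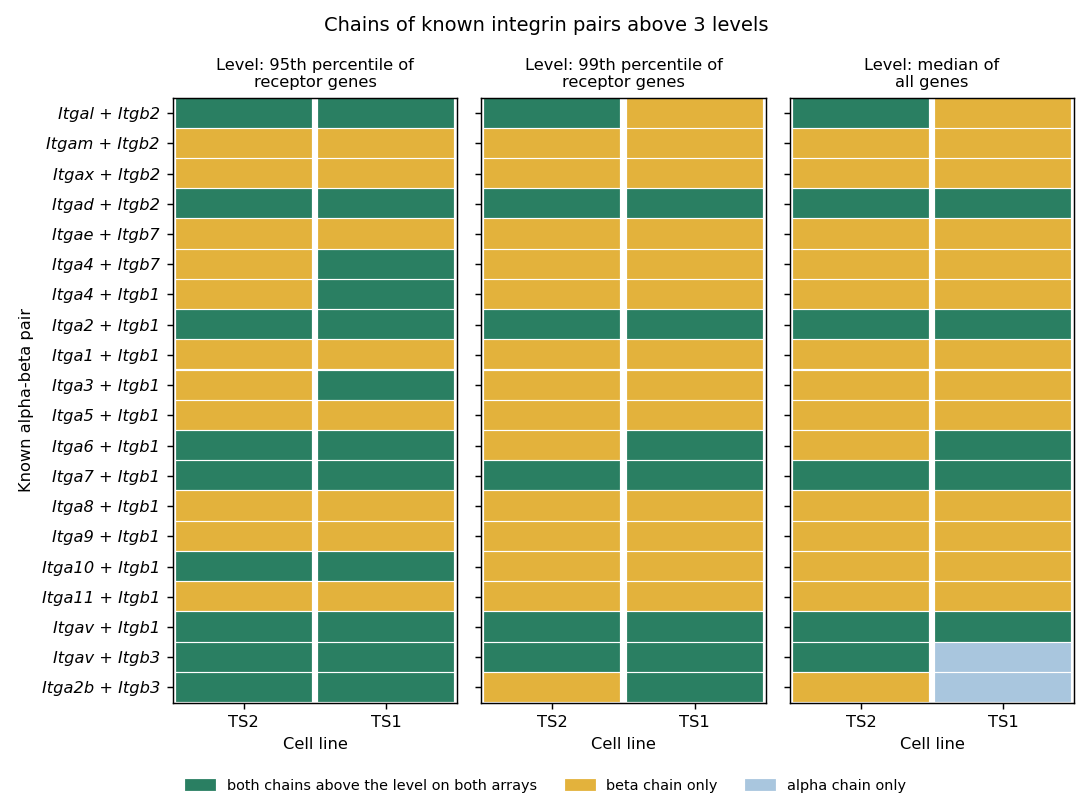
Known alpha-beta pairs that contain a leukocyte chain (rows), by line (columns, TS2 left of TS1), with 1 panel for each of 3 levels. Green marks both chains above the level on both arrays, yellow the beta chain only and blue the alpha chain only. Itgal with Itgb2 is green in TS2 under all 3 levels and in TS1 under the lowest, and the Itga4 pairs are green only in TS1 and only under the lowest.

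Counting partners outside the 10 chains, 20 of the 24 pairs contain at least 1 of them, and 9 met the criterion in TS2 and 12 in TS1. At the 99th percentile of the receptor genes these counts were 6 and 7, and at the median of all genes 6 and 5. Both counts therefore depended on the level. At the receptor level, Itga6, Itga7, Itga10 and Itgav with Itgb1 met the criterion in both lines. So did Itgav and Itga2b with Itgb3, and Itgad with Itgb2 by its brighter probe set. Itga3 with Itgb1 met it in TS1 only. At the 99th percentile the Itga3 and Itga10 pairs failed in both lines, and Itga6 with Itgb1 and Itga2b with Itgb3 failed in TS2. Of the 16 other integrin chains, 0 were called higher in TS2, 1 was lower and 15 did not pass (6.25% called, against 13.5% of all genes). The one called was Itga2b, the platelet partner of Itgb3, with 6.44 and 6.62 in TS2 and 7.67 and 7.56 in TS1 (difference -1.08, SE 0.11, adjusted p = 0.00602). Its arrays did not overlap. The platelet markers Pf4 and Ppbp lay below the receptor level on all 4 arrays, while Gp9 lay above it (6.53 and 6.62 in TS2, 6.64 and 6.98 in TS1). Of the 4 measured platelet and erythroid genes, Itga2b included, 2 lay above the level in each line, with summed intensities of 213.4 and 230.0 in TS2 and 334.9 and 348.1 in TS1. Itgav, which pairs with Itgb1 and Itgb3 in receptors for vitronectin and fibronectin, had 9.62 and 9.50 in TS2 and 9.21 and 9.29 in TS1 (difference 0.31, adjusted p = 0.103). Its pairs with Itgb1 and Itgb3 met the receptor level in both lines. At the median of all genes the Itgb3 pair was lost in TS1, since Itgb3 on TS1 B was 6.51 against 6.59.

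Other partners of Itgb1 were less even. Itga6, a laminin receptor chain, had 6.55 and 8.19 in TS2 and 7.99 and 7.60 in TS1, and TS2 B was the highest and TS2 A the lowest of the 4 arrays (adjusted p = 0.669). Itga7, another laminin receptor chain, had 6.74 and 6.72 in TS2 and 7.34 and 8.84 in TS1 (difference -1.36, SE 0.48, adjusted p = 0.140). Itga5, the alpha chain of the classical fibronectin receptor, was below the level on all arrays, from 4.95 to 5.18 in TS2 and from 5.18 to 5.34 in TS1. Itgad, a partner of Itgb2, has 2 probe sets that disagree in brightness. The one used gave 7.84 and 8.13 in TS2 and 8.06 and 8.32 in TS1. The one that also carries the RefSeq transcript gave 5.27 and 5.07 in TS2 and 5.03 and 4.89 in TS1, below the receptor level. The Itgad pair therefore meets the criterion by the first probe set and misses it by the second.

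**Figure D4:**
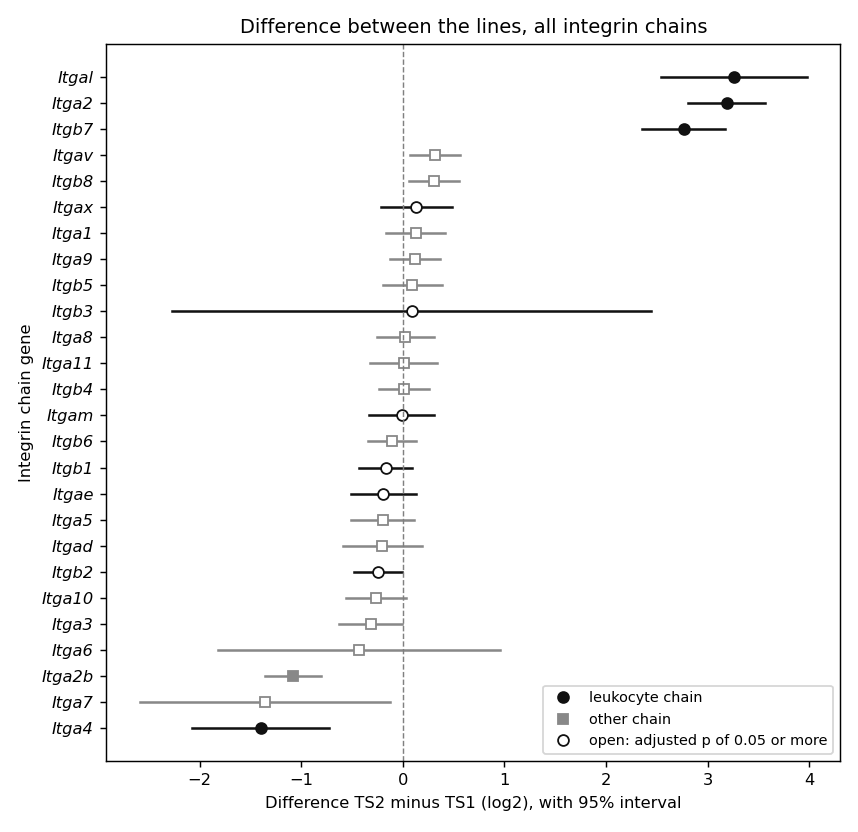
Difference TS2 minus TS1 (log2, horizontal axis) with its 95% interval for the 10 leukocyte chains (black circles) and the 16 other chains (grey squares), sorted by size, filled where the adjusted p was under 0.05. Itgal, Itga2 and Itgb7 lie to the right of all other chains, Itga4 has the lowest value, and Itgb3 has the widest interval.

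Integrins bind strongly only after signals inside the cell reach their tails, through the small GTPase Rap1, its adaptor RIAM, talin and kindlin. Of 31 measured genes of this machinery, 1 was higher in TS2, 6 were lower and 24 did not pass, with a median difference of -0.078. The called share was 22.6%, against 13.5% of all genes (5.05% higher and 8.45% lower). Tln2, the second talin gene, fell in TS2, with 5.84 and 6.01 in TS2 and 7.93 and 8.20 in TS1 (difference -2.14, SE 0.13, adjusted p = 0.00159). On TS2 A it did not exceed the receptor level, so the size of that difference is uncertain. Tln1, the main talin of blood cells, was bright in both lines and did not pass (10.73 and 10.67 in TS2, 10.60 and 10.68 in TS1, adjusted p = 0.733). Apbb1ip, which encodes RIAM, had 8.64 and 8.67 in TS2 and 9.59 and 9.69 in TS1 (difference -0.99, SE 0.091, adjusted p = 0.00461). Tln2 and Apbb1ip kept their calls whichever array was left out.

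The other calls of this group were less secure. Vcl, the talin-binding protein vinculin, was lower in TS2 by 1.42 on the log2 scale (adjusted p = 0.0263), with adjusted p = 0.0784 without TS1 A and 0.0957 without TS1 B. Ptk2b, a focal adhesion kinase of blood cells, was higher in TS2 by 0.92 (adjusted p = 0.0206), but leaving out TS2 A gave an adjusted p of 0.0869 and leaving out TS2 B one of 0.104. Fermt3, the kindlin of blood cells, was lower by 0.43 (adjusted p = 0.0462). Sharpin, an inhibitor of integrin activation, was lower by 0.49 (adjusted p = 0.0259), and Rapgef1, an exchange factor for Rap1, by 0.47 (adjusted p = 0.0352). Dropping any 1 array ended the calls of these last 3, at adjusted p of 0.0989 to 0.227 for Fermt3, 0.0644 to 0.145 for Sharpin and 0.0684 to 0.176 for Rapgef1. With the mean of its probe sets Rapgef1 differed by -0.16 (adjusted p = 0.288). The Fermt3 and Rapgef1 calls were also lost after centring of the arrays and after renewed quantile normalization.

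Of 28 measured genes listed as integrin ligands, 1 was higher in TS2, 4 were lower and 23 did not pass, with a median difference of 0.039. The 1 higher was Cd47, an integrin-associated protein rather than a ligand. The called share was 17.9%, close to the 13.5% of all genes. Npnt, nephronectin, a matrix ligand of the Itga8 and Itgb1 pair, was at 6.12 and 6.01 in TS2 and 11.75 and 11.84 in TS1 (difference -5.73, SE 0.095, adjusted p = 9.39e-05). Its receptor chain Itga8 lay below the receptor level on all arrays. Icam4 was lower in TS2 by 0.93 (adjusted p = 0.00576), Jam3, a junctional ligand of Itgam with Itgb2, by 0.92 (adjusted p = 0.00775), and the laminin chain Lama5 by 0.66 (adjusted p = 0.0245). Jam3 lay below the receptor level on both TS2 arrays (5.21 and 5.38), so the size of its difference is uncertain. The Lama5 call was lost without TS2 A (adjusted p = 0.116), TS2 B (0.125) and TS1 B (0.0636). Cd47, which associates with Itgav and Itgb3 at the cell surface, was at 11.60 and 11.59 in TS2 and 10.25 and 9.65 in TS1 (difference 1.65, adjusted p = 0.0114). Leaving out either TS2 array ended that call (adjusted p = 0.0579 for A and 0.0565 for B).

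Ligands of the called chains were themselves measured in these cells. Icam1, the main ligand of LFA-1, was bright in both lines, with 10.17 and 10.23 in TS2 and 10.43 and 10.54 in TS1 (difference -0.28, adjusted p = 0.123). Icam2 had 8.47 and 8.23 in TS2 and 8.39 and 8.01 in TS1 (adjusted p = 0.621). Madcam1, the ligand of the Itga4 and Itgb7 pair, lay between 5.76 and 5.83 in TS2 and between 5.73 and 5.94 in TS1, close to the receptor level (adjusted p = 0.865). Cdh1, the ligand of the Itgae and Itgb7 pair, lay below that level on all arrays. Fn1, the fibronectin gene, was bright in both lines, with 9.67 and 9.96 in TS2 and 9.81 and 10.13 in TS1 (adjusted p = 0.588). The collagen genes Col1a1, Col1a2, Col4a1 and Col4a2 lay above the receptor level on all 4 arrays, and none was called. Of these, only Col1a1 exceeded the 99th percentile of the receptor genes.

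**Figure D5:**
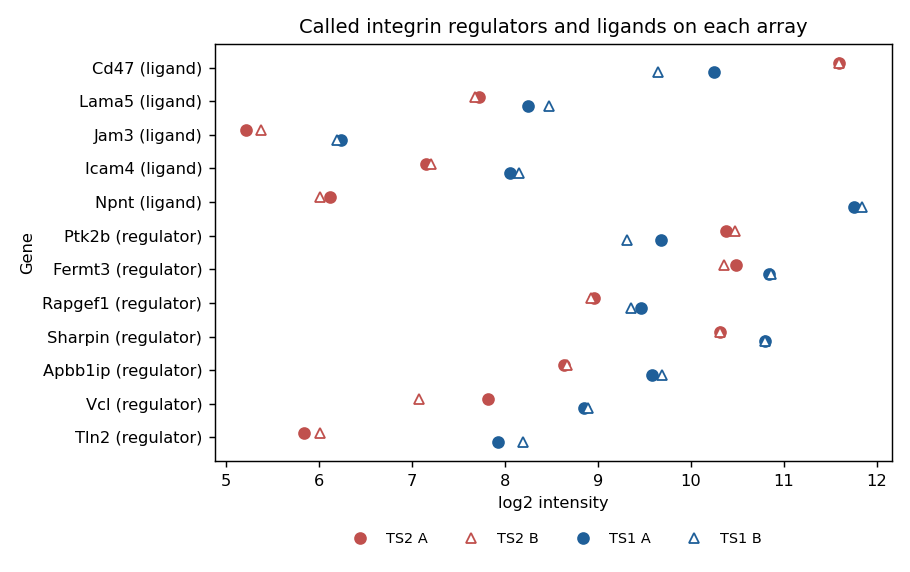
Log2 intensity (horizontal axis) on each array of the integrin regulators and ligands called different, TS2 in red above TS1 in blue, duplicate A filled and B open. Npnt shows the widest gap, and Ptk2b and Cd47 are the genes higher in TS2. Cd47 is marked as a ligand by its list, but is an integrin-associated protein.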

How the data were processed

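The authors deposited 1 linear intensity for each probe set on each array. Per the submitters' processing notes, the authors used Affymetrix Expression Console and RMA, which corrects background, normalizes between arrays and summarises probes. Between-array normalization removes any overall shift, so only relative differences remain. For the versions used, the sources used here give none. The file held 35556 probe sets with 0 missing values. Log2 was taken here with no pseudocount.

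Gene names came from the platform's annotation, with symbols updated by Entrez number through RefSeq genes of GRCm38.p6 (21698 of 21789 single-symbol sets found). The brightest single-symbol probe set, by mean of 4 arrays, stood for each of 19939 genes. All 4 arrays entered a linear model with the line as factor (limma 3.58.1, lmFit and eBayes, R 4.3.3, 2 residual and 3.03 prior degrees of freedom), with Benjamini-Hochberg adjustment over all genes. The fit was also run on data simulated from its own fitted prior variances. Such data meet the model by design, so they cannot show whether these arrays do. For arrays, the number of arrays limits the precision.

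The integrin chains and gene lists were chosen with earlier results of these data known. Named genes are the 10 chains, their pair partners, up to 6 called genes per direction and list, list markers and the 3 genes most like the extreme called chains. Neighbours, and uncalled regulators and ligands named with values, were added after their values were seen. Some listed genes, such as Ptk2, Spp1, C3 and Lck, are not analysed here. The alternatives comprised fits with each array left out, a block for the replicate letter, a trended or robust prior, centring, renewed quantile normalization, the dimmest 50% of genes left out, the mean of a gene's probe sets, an adjusted p under 0.01, and other levels for the pairs. The letters were checked as pairs: across genes, A minus B correlated between the lines at r = -0.029, and 2 pairs cannot settle pairing.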

Additional observations from a re-analysis of the deposited data

How the results depend on the processing

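Itgal, Itga2 and Itgb7 were called higher in TS2 under every alternative that changed the fit, with differences of 2.84 to 3.68, 3.02 to 3.36 and 2.55 to 2.98. The call of Itga4 was lost without TS2 A or TS2 B and with the replicate block (difference -1.40, adjusted p = 0.0730). Its difference was -1.75 to -1.05 with 1 array left out. Itga4 fell among the dimmest 50% and has no value there, nor have Itgam, Itgax and Itgae. Between 3 and 4 chains were called with 1 array left out, 3 with the replicate block and 3 at an adjusted p under 0.01. The block changed no other call of the 10 chains, but those of Fermt3, Rapgef1, Sharpin and Lama5 were lost, and the count over all genes was 1666, against 2691 without it. Uncalled chains changed sign: Itgam was 0.012 after centring and -0.16 to 0.13 with 1 array left out, Itgax was -0.011 to 0.28 and Itgb3 -1.15 to 1.33. All genes called numbered 980 to 2198 with 1 array left out (lowest without TS2 A) and 807 at an adjusted p under 0.01. Regulators, ligands and other chains called were 13, with 7 to 13 when 1 array was left out and 6 at 0.01. With fewer arrays fewer residual degrees of freedom remain, and the spread of a lone array is then taken from the other line. Pairs above the level, over all 24, were 10 in TS2 and 13 in TS1 at the 95th percentile, 6 and 7 at the 99th, and 6 and 5 at the median of all genes. Of the 7 pairs within the 10 chains, TS1 had 4, 1 and 1. Centring moved the median of all genes by 0.024 and quantile normalization by 0.0062. Array background values were not used, so the size of differences of chains near the receptor level, such as Itgal in TS1 and Itga4 in TS2, is uncertain.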

Other observations

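Beside Itgb3, Itga6 and Itga7, several genes related to adhesion differed widely between duplicates of a line. Vcam1, the endothelial ligand of the Itga4 and Itgb1 pair, was at 4.83 and 7.98 in TS2 and 4.55 and 4.88 in TS1, so TS2 B alone stood above the receptor level (adjusted p = 0.345). Parvg, a parvin of blood cells, was at 5.99 and 6.07 in TS2 and 8.26 and 6.03 in TS1, with TS1 A alone high (adjusted p = 0.378). Fermt2, the kindlin of many adherent cells, was at 4.85 and 4.96 in TS2 and 6.63 and 5.49 in TS1 (adjusted p = 0.114). Among the marker genes, Cd3g, another part of the CD3 complex, was at 10.39 and 11.98 in TS2 and 10.52 and 6.06 in TS1, and Pecam1, an adhesion molecule of endothelium and leukocytes, was at 6.38 and 8.06 in TS2 and 10.07 and 8.25 in TS1. A 2-fold or greater gap between duplicates was seen for 123 of all genes in TS2 and 221 in TS1.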
